A study of Homo sapiens with 6 samples.

Results

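Amino acids cross membranes through carriers of the solute carrier (SLC) families, and 7 of these families were followed here in human uveal melanoma cells, tumour cells of eye melanocytes. The genes were taken by symbol: every probe set with exactly 1 gene symbol in the array annotation that starts with SLC1A, SLC3A, SLC6A, SLC7A, SLC36A, SLC38A or SLC43A and a number, keeping for each gene the probe set with the highest mean. This gave 59 genes out of 18417, on 61 probe sets. Of the 59, 41 had a mean level at or above the low-value filter, a log2 level of 5.80, and were tested with 13808 genes in all. The other 18 lay below it. By symbol they were 18 of SLC6, 14 of SLC7, 12 of SLC38, 7 of SLC1, 4 of SLC36 and 2 each of SLC3 and SLC43. One of them, SLC7A6OS, is named for its place opposite SLC7A6 and is not a transporter, and SLC6 also holds carriers of creatine, taurine and monoamines. SLC43A3 was left out because its probe set also carries the symbol PRG2.

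The arrays came from 3 established lines, Mel 270, Mel 290 and 92.1, each cultured with activated T cells and alone, so there were 3 co-culture arrays and 3 arrays alone, 1 per line and condition. T cells of healthy volunteers, activated with beads against CD3 and CD28, sat in porous inserts above the melanoma cells at 1500000 per well for 64 h, in serum-free medium. Plating was 80000 cells for 92.1 and 100000 for Mel 270 and Mel 290, so it differs between 92.1 and the other lines. Medium, plating and time of a line were the same alone, without T cells. Nothing in the labels describes repeat cultures of a line. The p-values for co-culture thus rest on how its change varies between lines. Those for line differences rest on the same spread, with the co-culture and alone arrays of a line standing in for repeats. Arrays of 1 line correlated at r = 0.962 to 0.980 over all probe sets, and arrays of different lines at 0.918 to 0.966. Of 9 melanocyte markers measured, 9 stood at or above the filter level in 92.1 and in Mel 270 grown alone but 5 in Mel 290, where MLANA was at 4.92 against 12.18 in 92.1 and 12.46 in Mel 270. The T cell receptor subunits CD3D, CD3E and CD3G stayed below the filter level on all 6 arrays. CD3D was at 5.19, 5.47 and 5.70 in the co-cultures of 92.1, Mel 270 and Mel 290, and 5.28, 5.62 and 5.60 alone. Grown alone, 92.1 had 6 of 14 T cell markers at or above that level, Mel 270 had 7 and Mel 290 had 8. Co-culture minus alone, in the same order of lines, was -0.14, 0.40 and 0.41 for GZMB and 0.11, -0.17 and 0.67 for IL7R. For CD8A it was 0.13, -0.67 and -0.09. Whether any T cell RNA reached these arrays was not tested.

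The families divide the work. SLC3A2 (CD98) is the heavy chain that carries light chains such as SLC7A5 (LAT1), SLC7A8 (LAT2) and the cystine-glutamate exchanger SLC7A11 (xCT) to the cell surface. SLC38A1 and SLC38A2 take up glutamine and alanine with sodium, SLC1A4 and SLC1A5 exchange small neutral amino acids, and SLC38A9, SLC38A7 and SLC36A1 sit at lysosomes. When amino acids run short, the kinase GCN2 and the transcription factor ATF4 raise several of these carriers through C/EBP-ATF composite elements in DNA.

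Promoter sequences are shown for 3 of the 6 carriers that hold a match to this element: SLC38A1 and SLC1A4, low and high in Mel 270, and SLC7A1. They are RefSeq sequences of build GRCh38.p14, 180 bases before to 20 bases after an annotated transcript start, read 5′ to 3′ along the gene at chr12:46266497-46266696 (minus strand), chr2:64989219-64989418 (plus strand) and chr13:29595669-29595868 (minus strand). Capitals mark matches to TGATGNAA, the core of the C/EBP-ATF element, on either strand.
SLC38A1: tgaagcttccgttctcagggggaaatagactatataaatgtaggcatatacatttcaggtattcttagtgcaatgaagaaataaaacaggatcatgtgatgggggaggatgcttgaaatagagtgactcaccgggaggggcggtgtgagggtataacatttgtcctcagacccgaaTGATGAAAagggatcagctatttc
SLC1A4: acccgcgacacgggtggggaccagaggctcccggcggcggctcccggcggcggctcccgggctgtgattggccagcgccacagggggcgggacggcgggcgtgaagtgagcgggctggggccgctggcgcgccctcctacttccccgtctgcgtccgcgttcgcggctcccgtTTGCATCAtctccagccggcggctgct
SLC7A1: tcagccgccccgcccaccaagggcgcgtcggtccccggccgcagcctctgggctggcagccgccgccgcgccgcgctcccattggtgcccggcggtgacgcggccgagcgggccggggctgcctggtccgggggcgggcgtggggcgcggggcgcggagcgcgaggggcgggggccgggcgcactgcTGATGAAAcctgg
The match lay at -4 to 4 from the start in SLC38A1, at -7 to 1 in SLC1A4 (on the opposite strand) and at 8 to 15 in SLC7A1, with the first transcribed base counted as 1. SLC38A1 and SLC1A4 have 2 annotated start windows each, and the other window of each held no match. Windows of 300 bases were at hand for 46 of the 59 genes, 68 windows in all, with none for SLC7A11, and 6 of them (8.82%) in 6 genes, the 3 shown and SLC1A3, SLC1A5 and SLC3A2, held the motif, against 3.62% of all 35116 windows. The interferon-gamma motif TTCNNNGAA, which does not overlap the first one in these windows, was in 4 of the 68 windows (5.88%) of 3 genes and in 7.66% of all windows. The 6 carriers with the first motif did not move together in co-culture. In 92.1 SLC1A4 differed by 1.76, SLC7A1 by 0.63, SLC3A2 by 0.23, SLC38A1 by 0.11, SLC1A5 by 0.04 and SLC1A3 by -0.21. SLC7A1 differed by -0.68 in Mel 270 and -0.46 in Mel 290. A link between motif and change was not tested. A match is a description of letters and does not show that a factor binds.

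Grown alone, with 1 array per line, the lines differed in single carriers. SLC38A1 was below the filter level in Mel 270 and abundant in the other lines, while SLC1A4 was abundant in Mel 270 and low elsewhere. SLC7A8 and the arginine carrier SLC7A2 were lowest in Mel 290, and SLC6A17, which loads neutral amino acids into synaptic vesicles, was highest in 92.1. Over the 3 arrays alone, 15 of 41 carriers spanned at least 1 on the log2 scale (2-fold), against 26.7% of all tested genes, and the median span was 0.62 for the carriers and 0.58 for all tested genes.

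**Figure D1:**
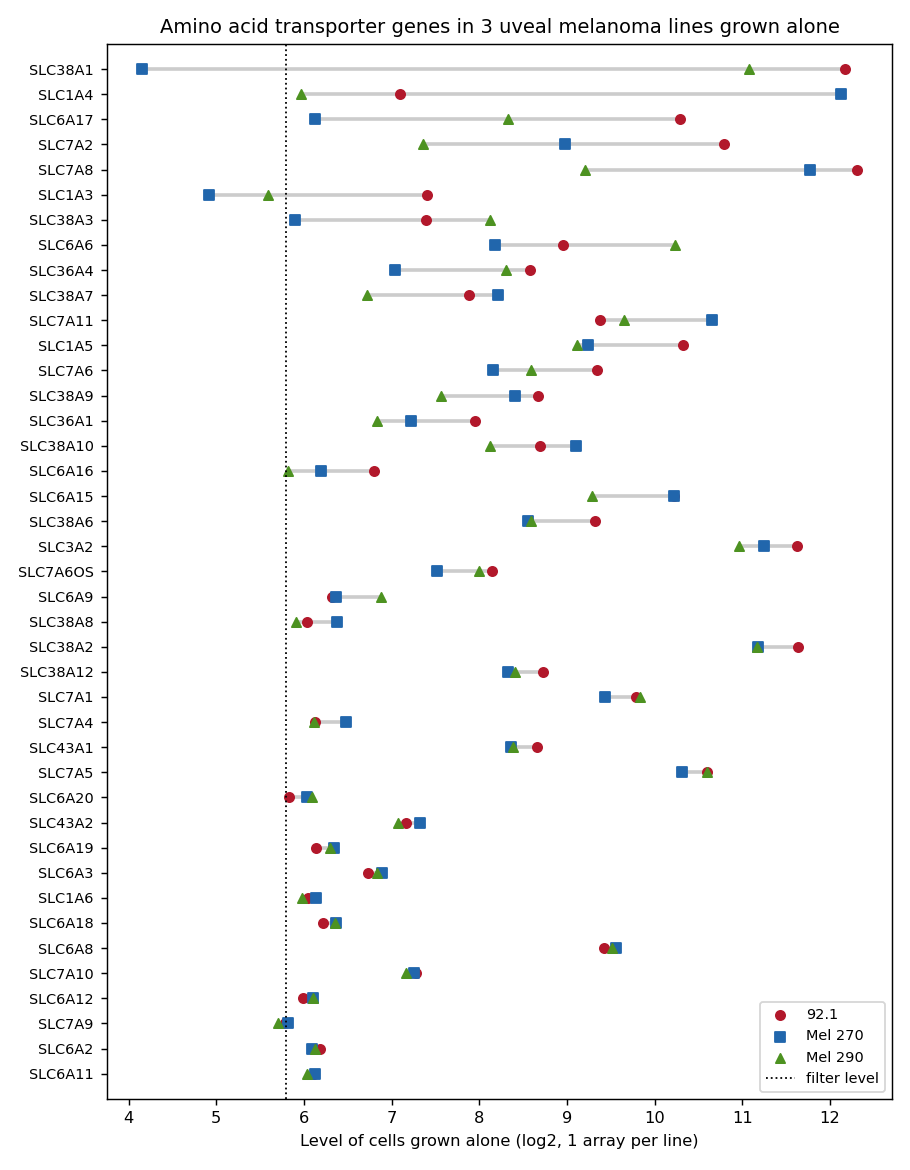
Levels on the log2 scale (horizontal axis) of the 41 carriers above the filter in 92.1 (circles), Mel 270 (squares) and Mel 290 (triangles) grown alone, 1 array per line, ordered from the widest span over lines at the top. Grey bars join the lowest and highest line and the dotted line is the filter level of 5.80; SLC38A1 spans 8.02 and SLC1A4 6.16.

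SLC38A1 (probe set 7962516, chromosome 12) measured 12.28 in co-culture and 12.17 alone in 92.1, 4.26 and 4.15 in Mel 270, and 10.82 and 11.07 in Mel 290. Both Mel 270 arrays lay below the filter level and the other 4 far above it, and co-culture and alone were at most 0.25 apart in each line. Grown alone, Mel 270 differed by -7.47 from the mean of the other lines. Over both cultures the difference was -7.38 ± 0.15 (SE, limma adjusted p = 0.00067). Both Mel 270 levels lie below the filter, so the size is imprecise: with values under the filter level raised to it, the difference was -5.79 (55.2-fold, adjusted p = 0.0017).

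SLC1A4 (probe set 8042310, chromosome 2), the exchanger of alanine, serine, cysteine and threonine also called ASCT1, measured 8.85 in co-culture and 7.09 alone in 92.1, 11.83 and 12.12 in Mel 270, and 6.47 and 5.96 in Mel 290. Mel 270 was above both other lines in either culture. Alone it exceeded their mean by 5.60, the highest value of this difference among the 13808 genes, and over both cultures by 4.88 ± 0.42 (SE, limma adjusted p = 0.0055). Mel 290 was lower than the mean of the others by a difference of -3.76 ± 0.42 over both cultures (adjusted p = 0.0051).

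SLC7A8 (probe set 7977933, chromosome 14), a light chain of SLC3A2, measured 12.28 and 12.30 in 92.1 in co-culture and alone, 10.25 and 11.77 in Mel 270, and 8.36 and 9.20 in Mel 290. The order 92.1, Mel 270, Mel 290 was the same in both cultures. Over both cultures 92.1 was higher by 2.39 ± 0.31 (adjusted p = 0.015) and Mel 290 lower (difference -2.87 ± 0.31, adjusted p = 0.0049), each against the mean of the other lines in limma. SLC7A2 (probe set 8144786, chromosome 8) measured 9.23 and 10.79 in 92.1 in co-culture and alone, 8.87 and 8.98 in Mel 270, and 7.58 and 7.35 in Mel 290. 92.1 was again highest and Mel 290 lowest, by 1.81 ± 0.39 (adjusted p = 0.039) and -1.997 ± 0.39 (adjusted p = 0.021) over both cultures. The gap between 92.1 and the other lines was 1.00 in co-culture and 2.62 alone.

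SLC6A17 (probe set 7903854, chromosome 1) measured 8.49 in co-culture and 10.29 alone in 92.1, 5.05 and 6.13 in Mel 270, and 6.82 and 8.33 in Mel 290. The lines kept the order 92.1, Mel 290, Mel 270 in both cultures, 92.1 being higher by 2.81 ± 0.19 (adjusted p = 0.0041) and Mel 270 lower (difference -2.89 ± 0.19, adjusted p = 0.0031) over both. SLC1A3, a glutamate carrier of glia also called EAAT1, measured 7.19 and 7.40 in 92.1 in co-culture and alone, 4.89 and 4.91 in Mel 270, and 6.01 and 5.59 in Mel 290. Only 92.1 was above the filter level in both cultures, and it was higher by 1.94 ± 0.18 (adjusted p = 0.0073), while Mel 270 was lower (difference -1.65 ± 0.18, adjusted p = 0.0091). With values under the filter level raised to it, these differences were 1.44 (adjusted p = 0.010) and -0.80 (adjusted p = 0.033), so their sizes are imprecise. The glutamine carrier SLC38A3 measured 7.56 and 7.39 in 92.1, 5.67 and 5.89 in Mel 270, and 6.63 and 8.12 in Mel 290, and was lower in Mel 270 (difference -1.65 ± 0.36, adjusted p = 0.043). This call was lost with low values raised (-1.58, adjusted p = 0.052).

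Each line was tested against the mean of the other 2 over both cultures, in contrasts that share arrays. At an adjusted p under 0.05 in either direction, 9 of 41 carriers passed in 92.1, 6 in Mel 270 and 10 in Mel 290. The shares of all tested genes were 15.9% for 92.1, 14.4% for Mel 270 and 26.2% for Mel 290. At an unadjusted p under 0.05 in 92.1, 15 of 41 carriers and 4561 of 13808 tested genes passed in either direction. At an adjusted p under 0.05, 9 carriers were higher in 92.1 (9.73% of all tested genes) and 0 lower (6.18%). Besides those named these were SLC1A5, the glutamine exchanger ASCT2 (1.36 ± 0.18), the lysosomal carriers SLC36A1 (1.06 ± 0.15) and SLC38A9 (0.77 ± 0.15), and SLC6A16 (0.97 ± 0.21). With each array centred on its median, 8 carriers were higher in 92.1, while all genes called in 92.1 moved to 1108 higher and 1076 lower, against 1344 and 853 as deposited. In Mel 270, 2 were higher (6.83%), SLC1A4 and SLC38A10 (0.76 ± 0.15), and 4 lower (7.62%), SLC38A1, SLC6A17, SLC1A3 and SLC38A3. In Mel 290, 2 were higher (11.3%), SLC38A1 and the glycine carrier SLC6A9 (0.64 ± 0.13), and 8 lower (14.9%), among them SLC38A7 (-1.31 ± 0.17) and SLC38A9 (-1.18 ± 0.15), both lysosomal, the second a sensor of arginine for mTORC1. The others lower there were SLC1A4, SLC7A2, SLC7A8, SLC36A1, SLC38A10 and SLC6A16. SLC38A1 in Mel 290 stood below 92.1 in both cultures (11.07 against 12.17 alone, 10.82 against 12.28 in co-culture). It exceeded the mean of the others because Mel 270 was at 4.15 alone and 4.26 in co-culture. These SEs come from 1 array per line and condition and hold no repeat cultures, and without a culture term 3 carriers passed in 92.1, 3 in Mel 270 and 9 in Mel 290.

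Counted on the single arrays alone with no test, carriers at least 1 above the mean of the other lines numbered 6 of 41 in 92.1 (6.29% of all tested genes), 3 in Mel 270 (4.58%) and 3 in Mel 290 (7.79%). Carriers at least 1 below it numbered 1 in 92.1 (4.4%), 6 in Mel 270 (5.94%) and 4 in Mel 290 (8.32%). At the even end, 19 carriers spanned less than 0.5 over the lines alone, and the share of all tested genes was not counted. Among the 19, SLC6A2, SLC6A11, SLC6A12, SLC6A18 and SLC6A19 lay just above the filter. Those at high levels included the heavy chain partner SLC7A5 (10.60 in 92.1, 10.31 in Mel 270, 10.59 in Mel 290), the arginine and lysine carrier SLC7A1 (9.79, 9.44 and 9.84 in the same order), SLC38A2 (11.63, 11.17 and 11.17) and the creatine carrier SLC6A8 (9.42, 9.56 and 9.51). SLC6A8 has near-identical pseudogene copies, so its probe set may read those too.

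The second question was whether factors of activated T cells changed the carriers. No carrier passed, 0 of 41 at an adjusted p of 0.05 in limma, where 62 of 13808 genes did (0.449%, with 0.413% higher and 0.0362% lower), so a count of 0 is close to that share. At an unadjusted p under 0.05 there were 2 carriers higher (7.02% of all tested genes) and 4 lower (13.0%). The median change of the 41 was -0.05, beside -0.04 over all tested genes, and 26 of 41 had a mean below 0 (57.1% of all tested genes). The same arrays had 9 of 9 tested interferon-gamma response genes higher, with IDO1, the enzyme that breaks down tryptophan, up by 7.51 ± 0.55 (SD, n = 3 lines, adjusted p = 0.0029, higher in 3 of 3 lines).

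**Figure D2:**
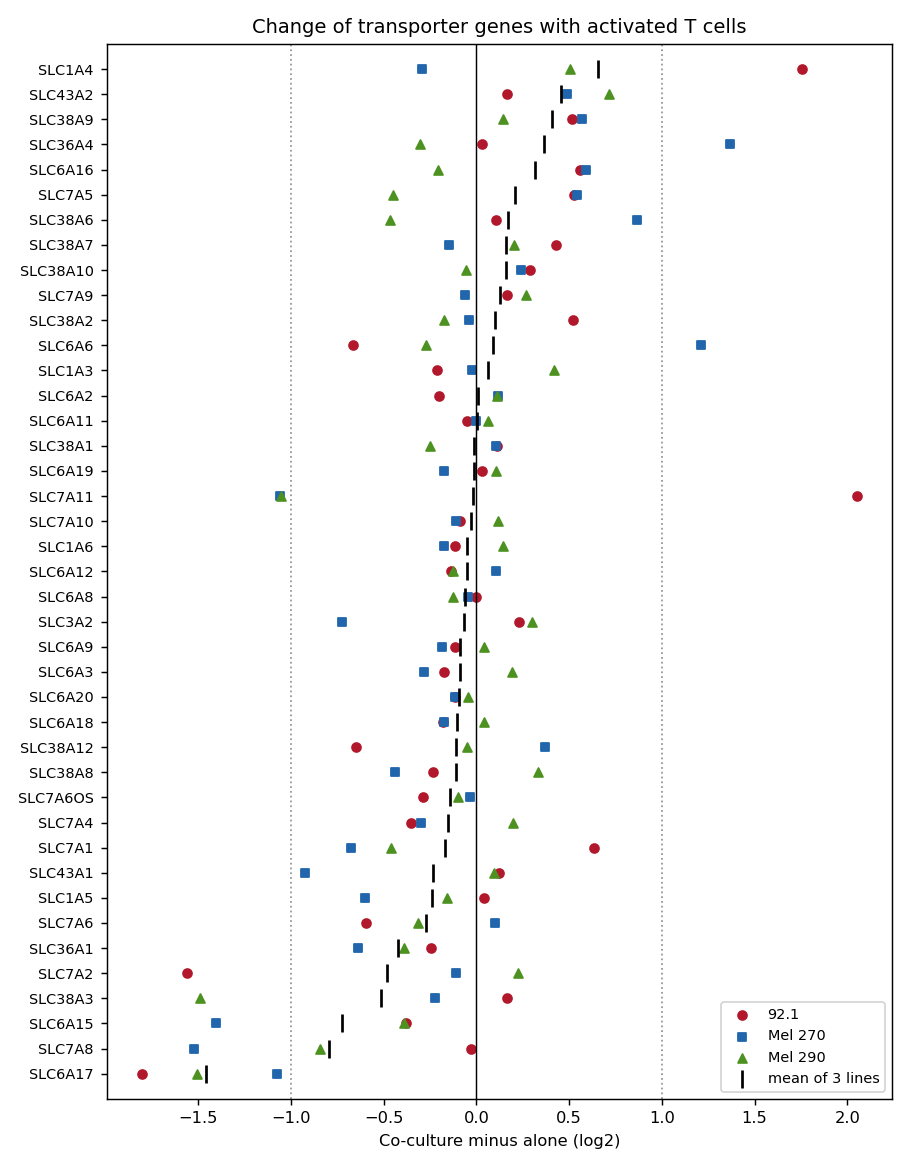
Co-culture minus alone on the log2 scale (horizontal axis) for the 41 carriers above the filter in 92.1 (circles), Mel 270 (squares) and Mel 290 (triangles), with the mean of the 3 lines as a black bar and dotted lines at -1 and 1. SLC6A17 is lowest with all 3 lines below -1, and SLC7A11 has 92.1 at 2.05 and both other lines near -1.05.

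SLC6A17 came closest (means over lines carry the SD of 3 lines). Its change was -1.80 in 92.1, -1.07 in Mel 270 and -1.51 in Mel 290, a mean of -1.46 ± 0.37 (SD, n = 3, 2.75-fold lower), and it was lower in 3 of 3 lines (limma adjusted p = 0.064, unadjusted p = 0.00040). Its mean change was the 55th lowest of 13808 genes. In Mel 270 the co-culture level of 5.05 lay below the filter, and with low values raised the mean was -1.21 (adjusted p = 0.14). Without Mel 270 the mean was -1.65 and it was called (adjusted p = 0.033), whereas without 92.1 (adjusted p = 0.16) or Mel 290 (adjusted p = 0.12) it was not.

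SLC6A15, a carrier of branched-chain amino acids and proline, and SLC7A8 also had lower values in every line as deposited, without passing. SLC6A15 measured 9.84 in co-culture and 10.22 alone in 92.1, 8.81 and 10.22 in Mel 270, and 8.90 and 9.29 in Mel 290, a mean of -0.72 ± 0.59 (adjusted p = 0.20). Mel 270 had the widest difference, -1.41, and the other lines about -0.38 and -0.39. For SLC7A8 the mean was -0.80 ± 0.75 (adjusted p = 0.23), made up of -0.03 for 92.1, -1.52 for Mel 270 and -0.84 for Mel 290. After cyclic loess the value in 92.1 was 0.08, and after median centring 0.02. The lysosomal proton-coupled SLC36A1 differed by -0.42 ± 0.20 (adjusted p = 0.19). Of the 41, 2 carriers were higher in every line, again without passing: SLC38A9 (0.41 ± 0.23, adjusted p = 0.22) and SLC43A2 (LAT4, 0.46 ± 0.27, adjusted p = 0.20), a carrier of large neutral amino acids. SLC43A2 measured 7.33, 7.81 and 7.78 in the co-cultures of 92.1, Mel 270 and Mel 290 and 7.16, 7.32 and 7.07 alone, and was the 1 carrier whose groups did not overlap, against 9.99% of all tested genes. In all, 9 carriers had the same sign in 3 lines, 7 lower and 2 higher, against 41.7% of tested genes. Of the 7, SLC7A8 and SLC6A8 turned above 0 in 92.1, and SLC7A6OS in Mel 270, under at least 1 of quantile, cyclic loess and median scaling.

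The partners of the CD98 complex did not share a direction. SLC3A2 (probe set 7940717, chromosome 11) measured 11.85 in co-culture and 11.62 alone in 92.1, 10.52 and 11.25 in Mel 270, and 11.27 and 10.96 in Mel 290. Its mean change was -0.06 ± 0.57 (adjusted p = 0.93), with only Mel 270 lower, and after cyclic loess scaling the mean was 0.04. SLC7A5 (probe set 8003298, chromosome 16) measured 11.13 and 10.60 in 92.1, 10.85 and 10.31 in Mel 270, and 10.14 and 10.59 in Mel 290 in co-culture and alone, a mean of 0.21 ± 0.57 (adjusted p = 0.71). It was higher in 92.1 and Mel 270 and lower in Mel 290. SLC7A6, another light chain, differed by -0.27 ± 0.35 and SLC7A10 by -0.03 ± 0.13, neither passing. The other heavy chain SLC3A1 and the light chains SLC7A7 and SLC7A13 lay below the filter, and SLC7A9, the partner of SLC3A1 in kidney, was just above it with a mean level of 5.83.

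The remaining carriers with high levels or larger mean differences are given on every array, none of them passing. The glutamine exchanger SLC1A5 measured 10.36 in co-culture and 10.32 alone in 92.1, 8.64 and 9.24 in Mel 270, and 8.95 and 9.11 in Mel 290, a mean of -0.24 ± 0.33. Its second probe set had a mean change of -0.24 too, but the line values were unlike. They were -0.35 in 92.1, -0.39 in Mel 270 and 0.008 in Mel 290, against 0.04, -0.60 and -0.16 for the first. SLC38A2, which cells raise when amino acids are short, measured 12.15 in co-culture and 11.63 alone in 92.1, 11.13 and 11.17 in Mel 270, and 10.996 and 11.17 in Mel 290 (0.10 ± 0.37). SLC7A1 read 10.43 in co-culture and 9.79 alone in 92.1, 8.76 and 9.44 in Mel 270, and 9.37 and 9.84 in Mel 290 (-0.17 ± 0.70). Both were higher in 92.1 and lower in Mel 270 and Mel 290. SLC7A6 stood at 8.75 in co-culture and 9.34 alone in 92.1, 8.25 and 8.15 in Mel 270, and 8.27 and 8.59 in Mel 290, lower in 92.1 and Mel 290. For SLC6A8 the arrays gave 9.41 in co-culture and 9.42 alone in 92.1, 9.51 and 9.56 in Mel 270, and 9.38 and 9.51 in Mel 290, nearly level in every line.

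The lysosomal carriers were read in the same way. SLC36A1 measured 7.71 in co-culture and 7.95 alone in 92.1, 6.58 and 7.22 in Mel 270, and 6.45 and 6.84 in Mel 290, lower in co-culture in each line. SLC38A9 stood at 9.19 in co-culture and 8.67 alone in 92.1, 8.98 and 8.41 in Mel 270, and 7.70 and 7.56 in Mel 290, higher in each line. SLC38A7, which lets glutamine out of lysosomes, read 8.31 in co-culture and 7.88 alone in 92.1, 8.07 and 8.22 in Mel 270, and 6.91 and 6.71 in Mel 290 (0.16 ± 0.29), with Mel 270 lower and the others higher. SLC36A4 gave 8.61 in co-culture and 8.58 alone in 92.1, 8.41 and 7.04 in Mel 270, and 7.996 and 8.30 in Mel 290 (0.37 ± 0.88) and the taurine carrier SLC6A6 8.29 in co-culture and 8.95 alone in 92.1, 9.38 and 8.17 in Mel 270, and 9.96 and 10.23 in Mel 290 (0.09 ± 0.99). In both, Mel 270 was the line that was clearly higher. SLC38A6 measured 9.42 in co-culture and 9.31 alone in 92.1, 9.42 and 8.55 in Mel 270, and 8.12 and 8.59 in Mel 290 (0.17 ± 0.67) and SLC6A16 7.35 in co-culture and 6.79 alone in 92.1, 6.78 and 6.19 in Mel 270, and 5.61 and 5.82 in Mel 290 (0.31 ± 0.45), both lower in Mel 290 and higher in the others. Among the remaining light chains, SLC7A9 read 5.95 in co-culture and 5.78 alone in 92.1, 5.75 and 5.81 in Mel 270, and 5.97 and 5.70 in Mel 290 and SLC7A10 7.19 in co-culture and 7.28 alone in 92.1, 7.15 and 7.26 in Mel 270, and 7.28 and 7.16 in Mel 290, with small differences in each line. Below the filter, SLC3A1 gave 4.23 in co-culture and 4.36 alone in 92.1, 4.50 and 4.60 in Mel 270, and 4.96 and 4.67 in Mel 290, SLC7A7 5.41 in co-culture and 4.97 alone in 92.1, 4.92 and 5.07 in Mel 270, and 5.23 and 5.06 in Mel 290 and SLC7A13 3.18 in co-culture and 2.95 alone in 92.1, 2.79 and 3.16 in Mel 270, and 3.30 and 3.32 in Mel 290.

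Single lines showed larger differences that the others did not share, described here without a test because each rests on 1 array per condition. SLC7A11 (probe set 8102800, chromosome 4), whose cystine uptake feeds glutathione synthesis, measured 11.43 in co-culture and 9.38 alone in 92.1, 9.59 and 10.65 in Mel 270, and 8.59 and 9.64 in Mel 290. It was 2.05 higher (4.14-fold) in 92.1, with differences of -1.06 in Mel 270 and -1.05 in Mel 290. It was the 1 carrier of 41 at least 1 higher in one line and at least 1 lower in another, a pattern in 0.239% of tested genes. Its mean, -0.02 ± 1.79 (adjusted p = 0.99), describes none of the lines, and its sign turned under quantile, cyclic loess and median scaling. Under these scalings the line values stayed between 2.05 and 2.15 in 92.1, -1.12 and -1.03 in Mel 270, and -1.05 and -0.95 in Mel 290.

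**Figure D3:**
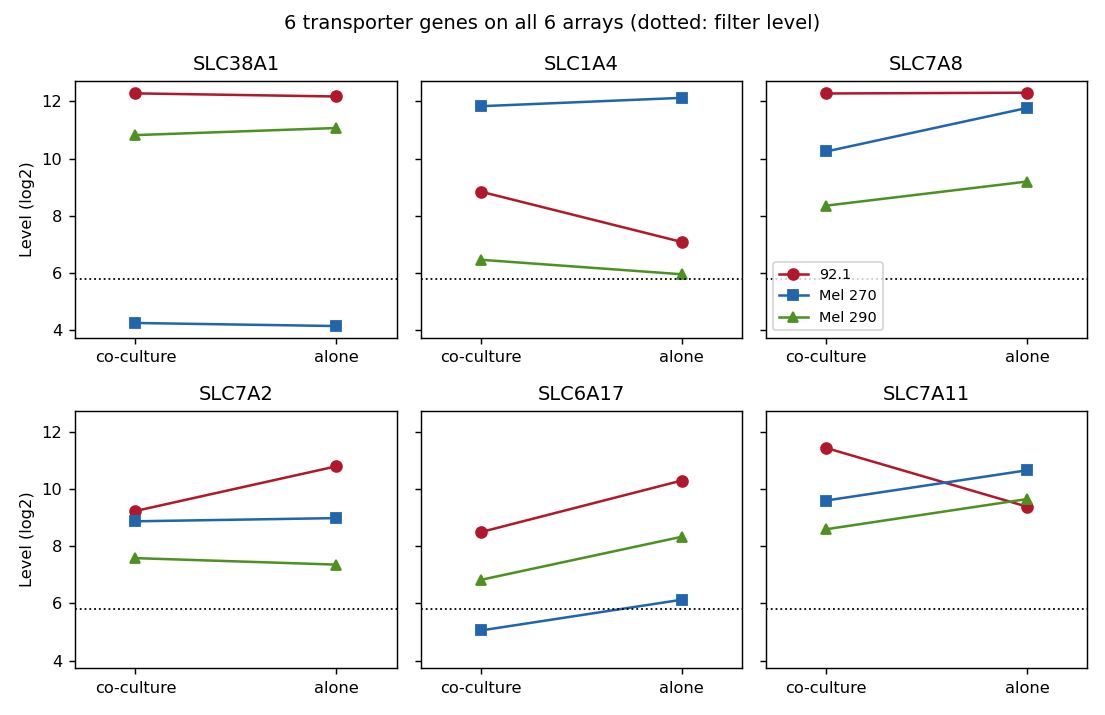
Levels on the log2 scale (vertical axis) of 6 carriers in co-culture (left) and alone (right), 1 array per point, with a line joining the arrays of 92.1 (circles), Mel 270 (squares) or Mel 290 (triangles) and the filter level dotted. SLC38A1 differs between lines and hardly between cultures, SLC6A17 is lower in co-culture in each line, and SLC7A11 is higher in 92.1 and lower in the others.

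In 92.1, 2 carriers were at least 1 higher (3.63% of all tested genes), SLC7A11 and SLC1A4, the second by 1.76, and 2 at least 1 lower (2.71%), SLC6A17 and SLC7A2, the second with a difference of -1.56. SLC7A1, SLC7A5 and SLC38A2 were 0.63, 0.53 and 0.52 higher there. In Mel 270, 2 were at least 1 higher (5.29%): SLC36A4, a proton-coupled carrier, with 8.41 in co-culture and 7.04 alone, and the taurine carrier SLC6A6, with 9.38 and 8.17. In the other lines SLC36A4 differed by 0.03 in 92.1 and -0.30 in Mel 290, and SLC6A6 by -0.66 and -0.27. Another 4 were at least 1 lower in Mel 270 (4.52%): SLC7A8, SLC6A15, SLC6A17 and SLC7A11. In Mel 290, 0 were at least 1 higher (2.07%) and 3 at least 1 lower (2.3%): SLC6A17, SLC7A11 and SLC38A3, the last with 6.63 in co-culture and 8.12 alone. Of the 41, 19 stayed within 0.5 in every line, among them SLC38A1, SLC6A8 and SLC38A10. Others of the 19, such as SLC6A11 and SLC6A12, lay just above the filter, and the share of all tested genes was not counted.

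The 18 carriers below the filter had mean levels from 3.12 to 5.76, and no array of theirs reached above 5.87. Their differences in any line ran from -0.38 to 0.44, so none was at least 1 apart. They were SLC1A1, SLC1A2 and SLC1A7, all glutamate carriers, the heavy chain SLC3A1, the serotonin carrier SLC6A4, SLC6A5, SLC6A7, SLC6A13, SLC6A14, SLC7A3, SLC7A7, SLC7A13, SLC7A14, SLC36A2, SLC36A3, SLC38A4, SLC38A5 and SLC38A11. The tested carriers not described elsewhere were SLC1A6, SLC6A3, SLC6A20, SLC7A4, SLC38A8, SLC38A12 and SLC43A1, and the widest of their differences in any line was that of SLC43A1 in Mel 270 (-0.92). SLC6A13 was nearest below the filter with a mean level of 5.76. Just above the filter, SLC6A2, SLC6A11, SLC6A12, SLC6A18 and SLC6A19 were at most 0.20 apart in any line, whereas SLC38A8 differed by -0.44 in Mel 270 and SLC7A4 by -0.35 in 92.1.

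Genes around the carriers were read in 6 lists. In the amino acid response list, targets and regulators of GCN2 and ATF4, 0 of 20 tested genes passed and the median change was 0.34, with ATF3 at 1.56 ± 0.79 and CEBPB at 1.29 ± 0.54 having the largest means. The line medians were 1.02 in 92.1, -0.29 in Mel 270 and -0.01 in Mel 290, and genes at least 1 higher numbered 10 of 20 in 92.1 (3.63% of all tested genes), 4 in Mel 270 (5.29%) and 1 in Mel 290 (2.07%). Genes at least 1 lower numbered 0 in 92.1 (2.71%), 4 in Mel 270 (4.52%) and 0 in Mel 290 (2.3%). The list was not uniform by line. In 92.1, Mel 270 and Mel 290, ATF3 differed by 0.98, 2.46 and 1.25, and CEBPB by 1.65, 1.55 and 0.66. ASNS, the asparagine synthetase, differed by 2.61, -1.49 and 0.03, and CTH, which makes cysteine, by 2.23, -1.36 and 0.43. ASNS and CTH were chosen after their values were seen, so they lend no weight to a pattern shared with the carriers. SLC7A11 and SLC1A4 were 2.05 and 1.76 higher in 92.1. With 1 array per condition, a link to this list was not tested. Cytosolic aminoacyl-tRNA synthetases had 0 of 19 called (median -0.20), with a median of 0.28 in 92.1, against -0.58 for Mel 270 and -0.27 for Mel 290. WARS1, which charges tryptophan, differed by 2.58 ± 1.04 (adjusted p = 0.075) and FARSB by -1.08 ± 0.35 (adjusted p = 0.078).

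**Figure D4:**
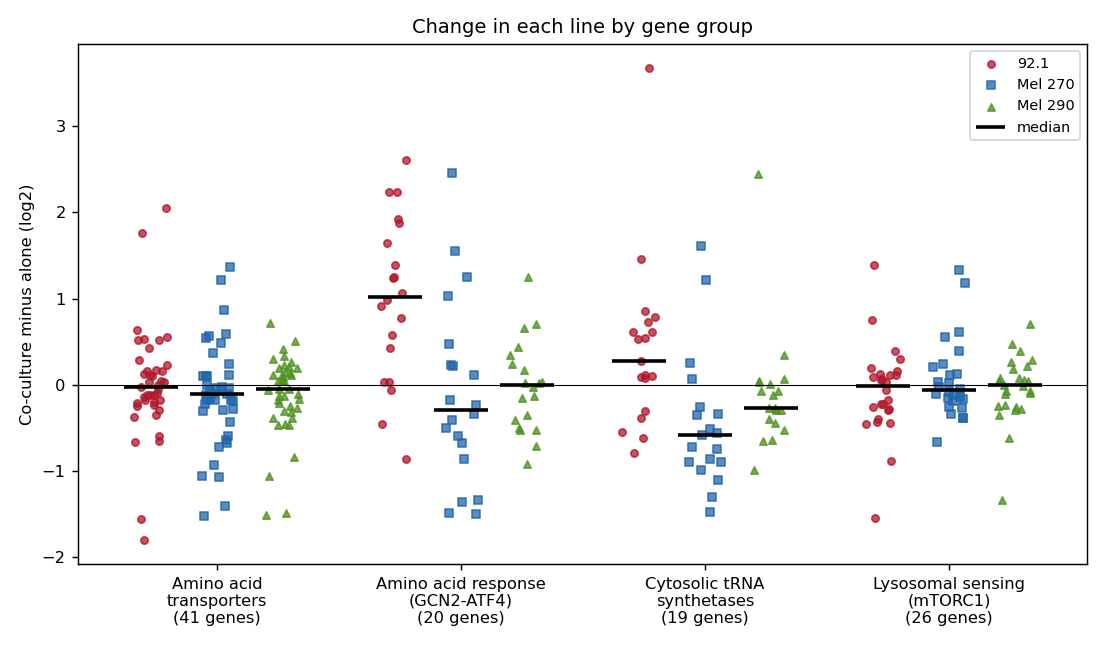
Co-culture minus alone on the log2 scale (vertical axis) for each tested gene of 4 groups in 92.1 (circles), Mel 270 (squares) and Mel 290 (triangles), with the median as a black bar. The amino acid response genes have a median of 1.02 in 92.1 and -0.29 in Mel 270, while the medians of the 41 carriers lie between -0.11 and -0.03.

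Genes of amino acid sensing at the lysosome, which activates mTORC1, had 0 of 26 called and a median of -0.02, with SESN3 at -0.78 ± 1.16 and SESN2 at 0.73 ± 0.64. Cystine and glutathione genes had 0 of 12 called and a median of 0.04, with GSR at -0.80 ± 0.29 and NFE2L2 at 0.58 ± 0.07. Amino acid catabolism genes had 2 of 10 called higher (0.413% of all tested genes) and a median of 0.01. The called genes were IDO1, already given among the interferon-gamma response genes, and KYNU, both enzymes of tryptophan breakdown. KYNU was up by 4.59 ± 0.44 (adjusted p = 0.0048, higher in 3 of 3 lines). Carriers of amino acids and peptides from other families had 1 of 16 called (0.449% of all tested genes) and a median of -0.03. That gene was SLC15A3, a lysosomal carrier of histidine and peptides, which measured 7.64, 7.55 and 7.38 in the co-cultures of 92.1, Mel 270 and Mel 290 and 6.24, 5.94 and 6.14 alone, without overlap, and rose by 1.41 ± 0.18 (2.67-fold, adjusted p = 0.038). SLC16A10, a carrier of aromatic amino acids, differed by -1.57 ± 0.60 (adjusted p = 0.075, lower in 3 of 3 lines).

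Markers of other cells gave no called gene: 0 of 7 for T cells (median change 0.07), 0 of 5 for monocytes and macrophages (-0.07), 0 of 4 for B cells (-0.06), 0 of 2 for endothelium (-0.62), 0 of 3 for retinal pigment epithelium (0.23) and 0 of 4 for epithelium (-0.08). Melanocyte markers had 0 of 9 called, with a median of -0.67. In Mel 290 grown alone 5 of the 9 stood at or above the filter level, which left the others little room to fall. MLANA lay below it there in both cultures (5.05 in co-culture, 4.92 alone). Line medians of the 9 markers were -0.79 in 92.1, against -1.10 for Mel 270 and -0.15 for Mel 290, with MLANA, OCA2 and SOX10 above 0 in Mel 290. Beside these, SLC7A8 differed by -0.03, -1.52 and -0.84 in the same order of lines and SLC6A17 by -1.80, -1.07 and -1.51. The part of melanocyte markers in those differences was not tested. On these arrays of whole cultures, fewer cells of a type and less RNA per cell cannot be told apart.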

How the data were processed

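Total RNA of 3 uveal melanoma lines, each with activated T cells and alone, was measured on 6 Affymetrix arrays. The authors deposited log2 values (read as log2 from their range, 1.49 to 13.9), made with Affymetrix Expression Console 1.2.0.20, per the submitters' processing notes. How background, summarization and normalization were handled is not given in the sources used here. Array medians of 6.63 to 6.69 were nearly equal, so no further scaling was applied. Precision is limited by there being 6 arrays.

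Of 33297 probe sets the annotation listed 21214, of which 19460 had 1 gene symbol and 1754 several, and 12083 stay unnamed here. Symbols were updated through a RefSeq table of GRCh38.p14 (19433 matched). The probe set with the highest mean stood for a gene. Genes under the 25th percentile of mean level (5.80) were not tested.

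Co-culture minus alone was fitted in limma 3.58.1 (R 4.3.3; lmFit, eBayes) over all 13808 tested genes with cell line as the block, since same-numbered arrays share a line (deviations from group means correlated at 0.741 to 0.832), and p-values were adjusted by Benjamini-Hochberg. The fit has 2 residual and 3.10 prior degrees of freedom. Exact permutation within 3 pairs cannot go below p = 0.25. Each line was set against the mean of the other 2 in the same fit. Single-line differences have no test. The SD is over 3 lines. The functions were tested on simulated data. Paralogs may share probe signal.

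Values on every array are given for members by rule: called, the 8 largest rises and falls, the 8 highest levels, the 8 widest spans alone, and SLC3 and partner SLC7 chains. In other lists called genes and the 2 largest changes are named. Members, lists and tests were chosen with earlier results of these data known. Alternatives were no block, 3 scalings, 2 filters, raised low values, averaged probe sets, an intensity trend, no culture term and leaving out each line.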

Additional observations from a re-analysis of the deposited data

Results flagged for a closer look

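SLC7A11, the cystine-glutamate exchanger, moved in opposite directions between lines. Co-culture minus alone was 2.05 in 92.1, -1.06 in Mel 270 and -1.05 in Mel 290 on the log2 scale, with 1 array per condition. That the lines differ in this response was not tested, since no line has a repeat array. Beside it, the median change of the 20 amino acid response genes was 1.02 in 92.1, -0.29 in Mel 270 and -0.01 in Mel 290.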

How the results depend on the processing

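No carrier was called in co-culture under any of the alternatives run on all 3 lines. Leaving out a line gave 0 to 1 called carriers, the 1 being SLC6A17 without Mel 270. The genes called in all were 62, with 18 without the cell line block, 41 after cyclic loess and 49 to 85 leaving out a line, and the median change of the carriers was 0.0013 after cyclic loess and -0.07 to -0.04 leaving out a line. Without the replicate block no carrier was called either, so the block changed no carrier's call in co-culture. Without a culture term, 871 genes and 3 carriers were called in 92.1 (2197 and 9 with it), 872 and 3 in Mel 270 (1995 and 6), and 2279 genes in Mel 290 (3615).

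Of the 26 named carriers above the filter, 12 changed sign under some alternative, none of them past the threshold. After quantile scaling, cyclic loess and centring on medians, in this order, the mean change was 0.0187, 0.0494 and 0.0206 for SLC38A1, 0.0011, 0.0013 and 0.0026 for SLC7A10 and 0.0211, 0.0583 and 0.0116 for SLC7A11. After cyclic loess it was 0.0425 for SLC3A2 and 0.00904 for SLC6A8. With low values raised SLC1A3 was at -0.00067. Leaving out each line gave ranges of -0.12 to 0.20 for SLC1A3, -0.14 to 0.70 for SLC36A4, -0.0709 to 0.11 for SLC38A1, -0.11 to 0.24 for SLC38A2, -0.18 to 0.49 for SLC38A6, -0.25 to 0.27 for SLC3A2, -0.47 to 0.47 for SLC6A6, -0.57 to 0.0858 for SLC7A1, -0.10 to 0.0126 for SLC7A10, -1.06 to 0.50 for SLC7A11 and -0.84 to 0.0575 for SLC7A2. None of the 25 line calls changed sign, and 17 of 219 checks lost a call, 10 of them without a culture term. The causes were not tested. Levels under the filter of 5.80 limit the sizes given for SLC38A1 and SLC1A3 in the line contrasts and for SLC6A17 throughout.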
